A study of Mus musculus with 16 samples.

Results

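The cone opsins and the cone-specific proteins of phototransduction were followed in the mouse retina 24 h after bright light. The 10 genes, given by symbol and chosen with earlier results of these data known, were the opsins Opn1sw and Opn1mw, the transducin subunits Gnat2, Gnb3 and Gngt2, the phosphodiesterase subunits Pde6c and Pde6h, the channel subunits Cnga3 and Cngb3, and the cone arrestin Arr3. Of the 45037 probe sets with deposited values, 13 were annotated to a single one of these symbols, and they covered 9 of the 10 genes. Of these, 12 probe sets for 8 genes were bright enough to test, among 10916 genes tested in all. The probe set of Gngt2 stayed below the filter on every array, and no probe set was annotated to Cnga3 in the table used, so Cnga3 was not analysed here.

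The series held 16 arrays of whole neural retina, freed of the retinal pigment epithelium, from albino BALB/c mice, either wild type or Nxnl1-/- (knockout below). A product of Nxnl1 is the rod-derived cone viability factor, a secreted thioredoxin-like protein. The series asked how loss of the gene affects susceptibility to photo-oxidative damage. Per the labels, all animals were 11-16 weeks old, were of both sexes in equal proportion, and had been reared in a cycle of 12 h at 50 lux and 12 h of darkness. All were dark adapted for 16 h, exposed to cool white fluorescent light for 1 h at 50, 2500 or 5000 lux, and kept in the dark for 24 h before the retina was taken. The 50 lux animals, the reference in each comparison, thus went through the same dark adaptation and an exposure at the rearing intensity. There were 2, 3 and 3 wild-type arrays and 3, 3 and 2 knockout arrays at the 3 doses, in that order. The labels call them biological replicates and leave unsaid whether the RNA of an array came from 1 animal or several, so the p-values measure the spread between these samples.

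Cones mediate vision in daylight. An opsin excited by a photon activates the G protein transducin, made of the subunits encoded by Gnat2, Gnb3 and Gngt2, which relieves the cone phosphodiesterase (Pde6c) of its inhibitory subunit (Pde6h). The fall in cyclic GMP closes the channel built from Cnga3 and Cngb3, and cone arrestin (Arr3) then quenches the opsin. In the mouse many cones hold both opsins, the short-wavelength opsin Opn1sw dominating ventrally and the medium-wavelength opsin Opn1mw dorsally. Rods run the same cascade with their own set of genes, and they far outnumber cones.

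Promoters are shown for 3 members whose levels lay lower in bright light (Opn1sw, Arr3 and Gnat2) and for Opn1mw, whose change passed the test nowhere, so that the sequences can be set beside the values that follow. Each is the 250 bases before the RefSeq start site, 5′ to 3′ on the gene's own strand, in build GRCm38.p6. Capitals mark matches, on either strand, to 4 short motifs: TAATCC (the core of CRX and OTX2 sites), TGCTGA (part of an NRL site), AGGTCA (the unit bound by thyroid hormone, retinoid X and ROR receptors) and AAGTCA (the unit bound by NR2E3). Opn1sw lies at chr6:29380514-29380763 on the minus strand, Opn1mw at chrX:74127216-74127465, Arr3 at chrX:100605247-100605496 and Gnat2 at chr3:108092816-108093065, these 3 on the plus strand.
Opn1sw: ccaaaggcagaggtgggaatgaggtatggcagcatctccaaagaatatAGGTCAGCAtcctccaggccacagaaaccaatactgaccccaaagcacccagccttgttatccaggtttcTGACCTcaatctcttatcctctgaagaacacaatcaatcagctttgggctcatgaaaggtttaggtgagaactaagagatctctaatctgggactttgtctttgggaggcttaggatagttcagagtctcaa
Opn1mw: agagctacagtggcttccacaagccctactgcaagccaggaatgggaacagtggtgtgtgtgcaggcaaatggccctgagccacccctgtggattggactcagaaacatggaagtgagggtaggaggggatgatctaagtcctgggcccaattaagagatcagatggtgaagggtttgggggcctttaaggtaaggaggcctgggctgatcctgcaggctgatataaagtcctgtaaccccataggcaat
Arr3: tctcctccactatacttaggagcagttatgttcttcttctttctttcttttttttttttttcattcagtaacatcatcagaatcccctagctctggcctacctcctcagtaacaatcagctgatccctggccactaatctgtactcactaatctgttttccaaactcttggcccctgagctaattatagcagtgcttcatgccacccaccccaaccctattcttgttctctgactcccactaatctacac
Gnat2: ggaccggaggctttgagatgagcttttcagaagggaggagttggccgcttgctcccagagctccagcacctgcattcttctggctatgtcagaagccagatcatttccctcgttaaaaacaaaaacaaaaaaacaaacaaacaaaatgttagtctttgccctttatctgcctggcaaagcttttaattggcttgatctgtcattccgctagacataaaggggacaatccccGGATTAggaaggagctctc

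In the Opn1sw window AGGTCA occurred with its first base 202 bases before the start, overlapping a TGCTGA match on the opposite strand, and again on the opposite strand at 132 bases. The Gnat2 window held 1 match, TAATCC on the opposite strand 19 bases before the start. The windows of Opn1mw and Arr3 held none of the 4 motifs, nor did that of Pde6h. Promoter sequences were at hand for 6 of the 10 genes, and the windows of the remaining one, Cnga3, held none of the motifs either. Of all 32851 promoter windows of this length in the table, 6.25% held TAATCC, 16.1% TGCTGA, 14% AGGTCA and 13.1% AAGTCA. A match is a run of letters and was not tested as a binding site.

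The targeted gene followed its labels. Nxnl1 had a mean log2 intensity of 7.57, 6.44 and 6.06 in wild type at the 3 doses in rising order, and of 2.24, 2.45 and 2.57 in the knockout, below the filter on every knockout array. Rod genes marked the tissue as retina, with the rod arrestin Sag between log2 14.2 and 14.7 on every array. On the linear scale, not log2, the median intensity of an array was 14.4 to 15.1 at 50 lux and 15.3 to 15.8 in bright light. The summed intensity of 5 lens markers reached 53930 on wild-type 5000 lux replicate 2, against 25.7 to 127 on the other wild-type arrays and 61.0 to 5689 on the knockout arrays. A call at 5000 lux in the wild type that changes without that array is given with and without it.

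Levels below are log2 of the deposited intensity of a gene's brightest probe set, and changes are differences of those levels. A gene was called where its adjusted p in limma, corrected over all 23320 probe sets tested, was under 0.05. Both bright doses of a genotype were compared with the same 50 lux arrays, so they are not independent of each other. In a whole retina, fewer cones and less RNA per cone cannot be told apart. In the wild type at 2500 lux 1 of the 8 tested genes rose and 2 fell, where 8.93% of all genes rose and 5.13% fell. At 5000 lux the counts were again 1 and 2, against 7.56% and 5.27%. In the knockout 1 rose and 5 fell at 2500 lux, against 8.87% and 13.5%, and 1 rose and 2 fell at 5000 lux, against 4.6% and 7.81%. The median change of the 8 genes was -0.31, -0.34, -0.71 and -0.35 in these 4 comparisons, beside medians over all genes of 0.04, 0.00, -0.08 and -0.09.

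**Figure D1:**
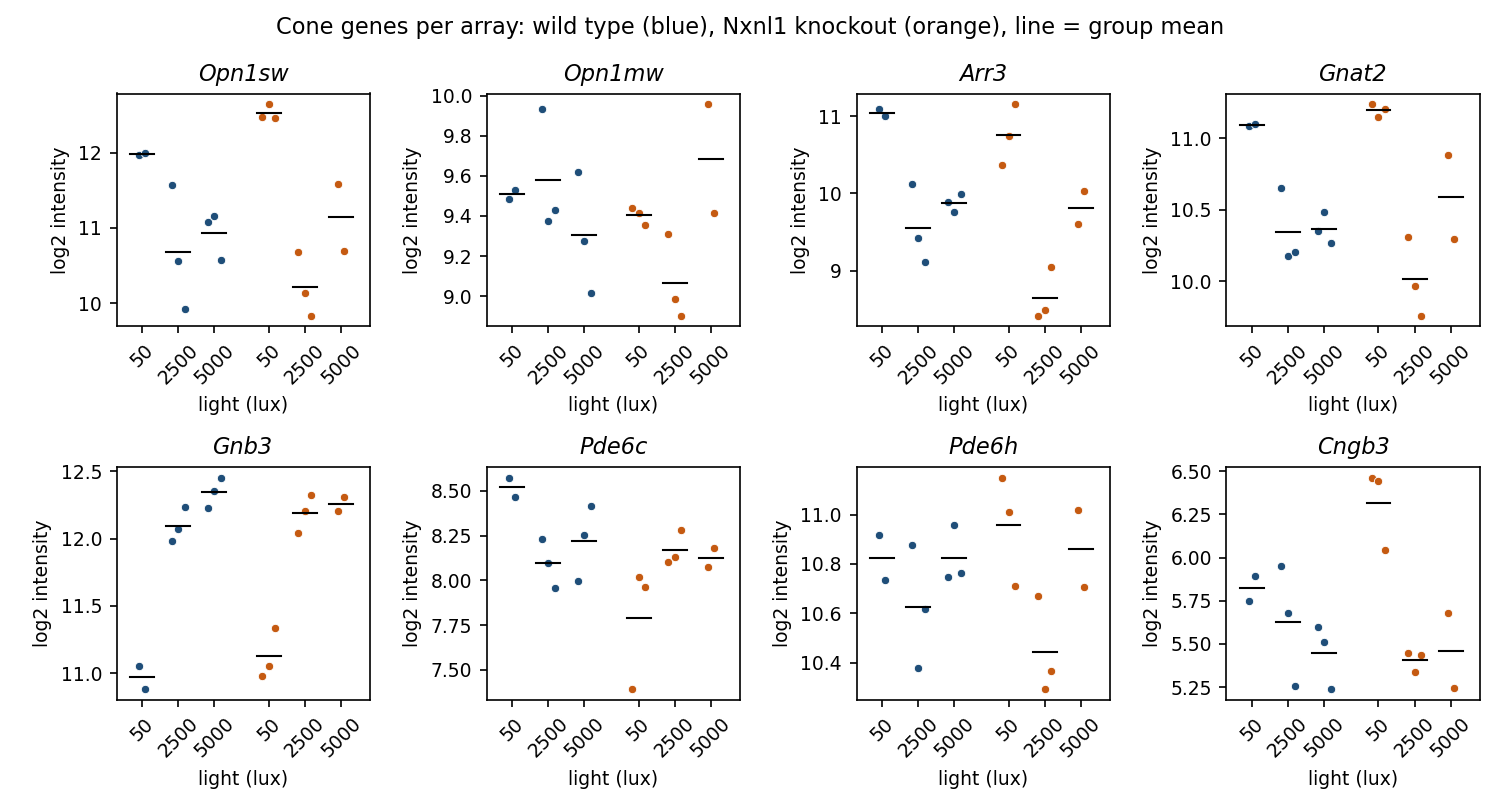
Log2 intensity (vertical axes, each gene on its own scale) of the 8 tested cone genes on every array, by light dose in lux; blue points are wild-type arrays, orange points knockout arrays, and lines are group means. Gnb3 lies higher on all 11 bright-light arrays than on the 5 arrays at 50 lux, and Opn1sw, Arr3 and Gnat2 lie lower on all 11. The share of all genes that separate in this way was not counted.

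Opn1sw had the largest single fall among the members, in the knockout at 2500 lux. Its wild-type level was 11.97 and 12.00 at 50 lux, 11.57, 10.56 and 9.92 at 2500 lux, and 11.07, 11.16 and 10.58 at 5000 lux. In the knockout it was 12.48, 12.64 and 12.45 at 50 lux, 10.69, 10.14 and 9.84 at 2500 lux, and 11.59 and 10.69 at 5000 lux. Every bright-light array lay below every 50 lux array of either genotype. How many of all genes separate in this way was not counted, so the separations given here and below are descriptions only.

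The knockout fall at 2500 lux was 4.94-fold (log2 -2.30, SE 0.35, adjusted p = 0.0005). At 5000 lux it was 2.61-fold (log2 -1.39, SE 0.40, adjusted p = 0.0398), and this call was lost without any 1 of the knockout 50 lux replicates (adjusted p = 0.0873, 0.0745 and 0.0642 without replicates 1, 2 and 3). Without knockout 5000 lux replicate 2 the change was -0.94 (adjusted p = 0.342). For the wild type the same probe set missed the threshold, at -1.30 (SE 0.40, adjusted p = 0.0501) for 2500 lux and -1.05 (SE 0.40, adjusted p = 0.123) for 5000 lux. Wild-type 2500 lux replicate 1 was the highest bright-light array of that genotype, and without it the 2500 lux change was -1.74 (adjusted p = 0.00434). Another, dimmer probe set of Opn1sw fell in all 4 comparisons, by 1.90 (adjusted p = 0.0071) and 1.81 (adjusted p = 0.00998) on the log2 scale in the wild type at 2500 and 5000 lux, and by 3.06 (adjusted p = 5.45e-05) and 2.10 (adjusted p = 0.00579) in the knockout.

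In order of group means, Opn1sw stood at 12.53 in the knockout at 50 lux and 11.98 in the wild type at 50 lux, then at 11.14 and 10.94 in knockout and wild type at 5000 lux, and at 10.69 and 10.22 in wild type and knockout at 2500 lux. Neighbours among the last 4 groups overlapped array by array. The 50 lux groups did not overlap, but their difference of 0.54 had a 95% interval of -0.31 to 1.40 (adjusted p = 0.518).

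Opn1mw, the other cone opsin, passed the test in none of the 4 comparisons. It read 9.48 and 9.53 in the wild type at 50 lux, 9.93, 9.37 and 9.43 at 2500 lux, and 9.62, 9.28 and 9.02 at 5000 lux. The knockout arrays read 9.44, 9.42 and 9.35 at 50 lux, 9.31, 8.99 and 8.90 at 2500 lux, and 9.96 and 9.42 at 5000 lux. Wild-type groups overlapped, while the knockout arrays at 2500 lux all lay below those at 50 lux. The changes were 0.07 (95% interval -0.39 to 0.53) and -0.20 (-0.66 to 0.26) in the wild type and -0.34 (-0.75 to 0.07) and 0.28 (-0.18 to 0.74) in the knockout, for 2500 and 5000 lux. The 4 intervals together reach from -0.75 to 0.74, and the point estimates of Opn1sw lie outside that range. The 95% intervals of Opn1sw were -2.15 to -0.44 and -1.90 to -0.19 in the wild type. In the knockout they were -3.07 to -1.54 and -2.24 to -0.53. Only that of the knockout at 2500 lux lies wholly outside the range.

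The unequal change of the opsins was tested within each array, as the log2 ratio of Opn1sw to Opn1mw. Only its change between conditions has a meaning, since the levels of different probe sets do not compare. This ratio, and 8 more below, were chosen after the data had been seen. It ran from 2.47 to 3.23 on the 5 arrays at 50 lux and from 0.49 to 1.88 on the 11 bright-light arrays, with no overlap. The mean change was -1.48, made of -1.10 in the wild type and -1.85 in the knockout. The exact permutation test within genotypes (two-sided, 1568 arrangements) gave its smallest possible p, 0.000638, and 0.000957 after adjustment over the 9 ratios.

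Arr3, the cone arrestin, fell in 3 of the 4 comparisons. Its wild-type levels were 11.09 and 11.00 at 50 lux, 10.12, 9.43 and 9.12 at 2500 lux, and 9.88, 9.75 and 9.99 at 5000 lux. Its knockout levels were 10.37, 10.74 and 11.15 at 50 lux, 8.42, 8.49 and 9.04 at 2500 lux, and 9.60 and 10.03 at 5000 lux. The groups did not overlap with their 50 lux reference in any of the 4 comparisons, and the lowest values of the series were those of the knockout at 2500 lux.

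The fall was 4.30-fold in the knockout at 2500 lux (log2 -2.10, SE 0.26, adjusted p = 8.14e-05) and 2.80-fold in the wild type (log2 -1.49, SE 0.29, adjusted p = 0.0044). At 5000 lux the wild type fell 2.25-fold (log2 -1.17, SE 0.29, adjusted p = 0.0187), while the knockout value of -0.94 (SE 0.29) had adjusted p = 0.0512. Of the wild-type calls, that at 2500 lux had adjusted p = 0.05 without 50 lux replicate 1. At 5000 lux it was lost without 50 lux replicate 1 (0.138) or 2 (0.0922) and, with the lens-rich array left out, had adjusted p = 0.054. Another probe set of Arr3 was called in the same 3 comparisons (log2 -1.48, -1.06 and -1.93), and another, dimmer one in the knockout at 2500 lux alone (log2 -1.43, adjusted p = 0.00844).

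The transducin subunits went in opposite directions. Gnat2, the alpha subunit that carries the signal from opsin to phosphodiesterase, read 11.09 and 11.10 in the wild type at 50 lux, 10.65, 10.17 and 10.20 at 2500 lux, and 10.35, 10.48 and 10.27 at 5000 lux. In the knockout it read 11.24, 11.15 and 11.20 at 50 lux, 10.31, 9.97 and 9.76 at 2500 lux, and 10.88 and 10.30 at 5000 lux. No bright-light array reached the 50 lux arrays.

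Gnat2 fell 2.27-fold in the knockout at 2500 lux (log2 -1.18, SE 0.17, adjusted p = 0.000367). Wild-type retina showed falls of 1.68-fold at 2500 lux (log2 -0.75, SE 0.19, adjusted p = 0.0243) and of 1.65-fold at 5000 lux (log2 -0.73, SE 0.19, adjusted p = 0.0301). The knockout change at 5000 lux was -0.61 (SE 0.19, adjusted p = 0.061), and it moved to -0.90 (adjusted p = 0.0154) without knockout 5000 lux replicate 1 and to -0.31 without replicate 2, where it was not called. Both wild-type calls were lost when certain single arrays were left out. The change itself stayed between -0.90 and -0.66 at 2500 lux and between -0.78 and -0.68 at 5000 lux. At 2500 lux adjusted p was 0.13 and 0.129 without 50 lux replicates 1 and 2, and 0.0763 and 0.0807 without 2500 lux replicates 2 and 3. At 5000 lux it was 0.159 and 0.146 without the 50 lux replicates, and 0.0675 and 0.1 without 5000 lux replicates 1 and 3.

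Gnb3, which encodes the beta subunit paired with Gnat2 in cones and is also made by ON bipolar cells, rose in all 4 comparisons. It read 11.06 and 10.88 in the wild type at 50 lux, 11.98, 12.07 and 12.23 at 2500 lux, and 12.23, 12.35 and 12.45 at 5000 lux. In the knockout it read 10.98, 11.06 and 11.34 at 50 lux, 12.05, 12.21 and 12.32 at 2500 lux, and 12.21 and 12.31 at 5000 lux. All 11 bright-light arrays lay above all 5 arrays at 50 lux.

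The wild-type rise was 2.18-fold at 2500 lux (log2 1.13, SE 0.14, adjusted p = 0.00013) and 2.59-fold at 5000 lux (log2 1.38, SE 0.14, adjusted p = 2.02e-05). In the knockout it was 2.09-fold (log2 1.07, SE 0.12, adjusted p = 4.73e-05) and 2.20-fold (log2 1.13, SE 0.14, adjusted p = 0.000233). It held whichever array was left out. Within an array, the log2 ratio of Gnb3 to Gnat2 moved up by 2.02 in bright light. It went from a range of -0.25 to 0.13 to one of 1.32 to 2.56 (exact permutation test, adjusted p = 0.000957). The separation, and with it this p, was fixed beforehand, since Gnb3 lay higher and Gnat2 lower on every bright-light array. The p therefore adds nothing to the values given for each gene.

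Because Gnb3 also belongs to ON bipolar cells, 11 bipolar markers that could be tested were read beside it. None was called in the wild type at 2500 lux, and at 5000 lux 1 fell. In the knockout 1 rose and 2 fell at 2500 lux, and 1 fell at 5000 lux. Their summed intensity ran from 16600 to 16700 in the wild type at 50 lux, from 15510 to 17870 at 2500 lux and from 14800 to 16380 at 5000 lux. In the knockout it ran from 17180 to 19810, from 15610 to 16050 and from 15690 to 17400. The marker that rose was Trpm1, the ON bipolar cation channel (log2 2.89, adjusted p = 0.000499), from a mean of 3.48, below the filter, to 6.37. Those that fell were Vsx1, a bipolar transcription factor, in the knockout at 2500 lux (log2 -1.26), in the knockout at 5000 lux (-1.03) and in the wild type at 5000 lux (-0.93), and Prkca, a rod bipolar kinase, in the knockout at 2500 lux (-0.36). The part of bipolar cells in the change of Gnb3 was not tested.

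Gngt2, the gamma subunit, read between 2.24 and 2.77 on all 16 arrays, close to the lowest value of the files (2.21). It was not above log2 4 on any array, was not tested, and gives no fold.

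**Figure D2:**
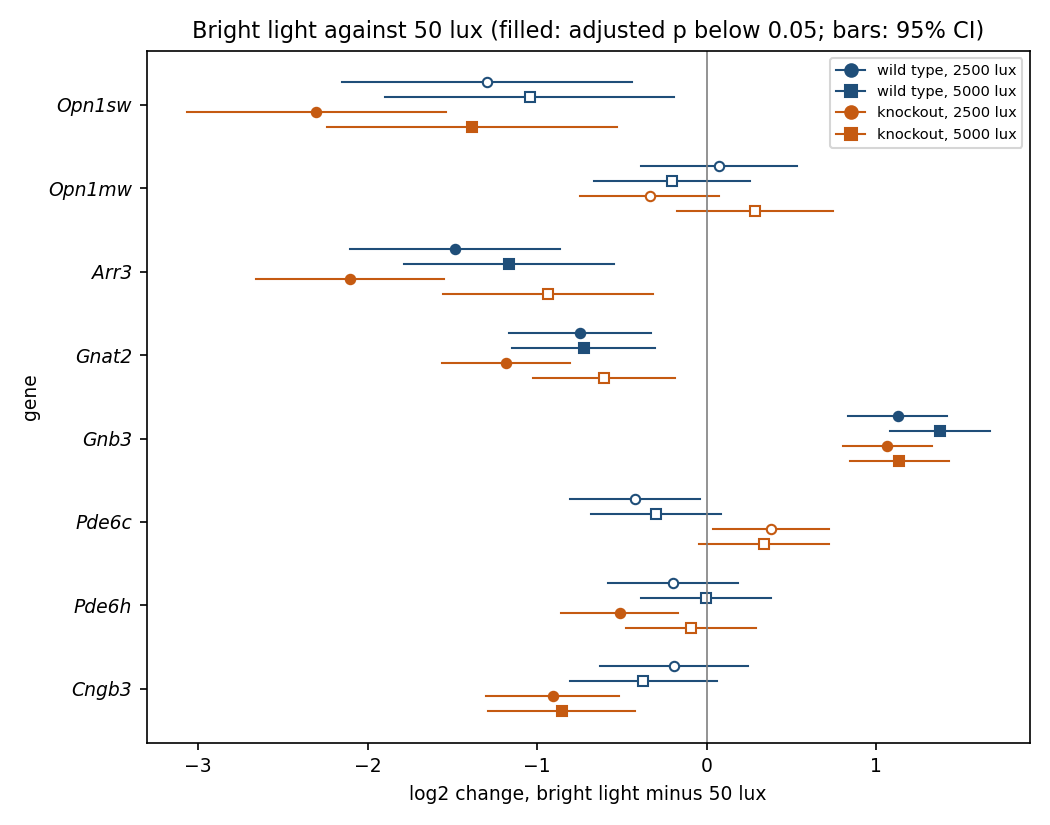
Log2 change in bright light minus 50 lux (horizontal axis) of the 8 tested cone genes, with 95% confidence intervals; blue is wild type, orange knockout, circles 2500 lux, squares 5000 lux, and filled symbols passed the test. Gnb3 lies between 1.07 and 1.38 in all 4 comparisons, and Opn1sw, Arr3 and Gnat2 lie between -0.61 and -2.30.

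The subunits of the phosphodiesterase changed less. Pde6c, the catalytic subunit, read 8.57 and 8.47 in the wild type at 50 lux, 8.23, 8.10 and 7.96 at 2500 lux, and 7.997, 8.26 and 8.41 at 5000 lux. In the knockout it read 7.39, 8.02 and 7.96 at 50 lux, 8.10, 8.13 and 8.28 at 2500 lux, and 8.08 and 8.18 at 5000 lux. Wild-type arrays thus lay below their 50 lux reference in bright light and knockout arrays above theirs, with no overlap in either genotype. None of these changes passed, at -0.42 (adjusted p = 0.152) and -0.30 (adjusted p = 0.359) in the wild type and 0.38 (adjusted p = 0.116) and 0.34 (adjusted p = 0.224) in the knockout. Without knockout 50 lux replicate 1, the lowest array, the knockout changes were 0.18 and 0.14. The wild-type change at 5000 lux ranged from -0.39 to -0.19 when each array was left out.

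Pde6h, the inhibitory subunit, fell in the knockout at 2500 lux. There it read 10.67, 10.29 and 10.37, against 11.15, 11.01 and 10.71 at 50 lux and 11.02 and 10.71 at 5000 lux. Wild-type arrays read 10.92 and 10.73 at 50 lux, 10.88, 10.38 and 10.62 at 2500 lux, and 10.75, 10.96 and 10.76 at 5000 lux, and these groups overlapped. The fall was 1.43-fold (log2 -0.51, SE 0.16, adjusted p = 0.038), and its other probe set gave -0.39 (adjusted p = 0.0374). It was lost without knockout 50 lux replicate 1 (0.13) or 2 (0.0866), or 2500 lux replicate 2 (0.136) or 3 (0.121). The other 3 changes lay between -0.20 and -0.003.

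Cngb3, the modulatory channel subunit, fell in the knockout at both doses. The knockout arrays read 6.46, 6.44 and 6.04 at 50 lux, 5.45, 5.34 and 5.44 at 2500 lux, and 5.68 and 5.24 at 5000 lux. Wild-type arrays read 5.75 and 5.90 at 50 lux, 5.95, 5.68 and 5.25 at 2500 lux, and 5.60, 5.51 and 5.24 at 5000 lux. The knockout arrays at 50 lux lay above all others, and the wild-type groups at 50 and 2500 lux overlapped.

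The knockout falls of Cngb3 were 1.88-fold at 2500 lux (log2 -0.91, SE 0.18, adjusted p = 0.00325) and 1.81-fold at 5000 lux (log2 -0.86, SE 0.20, adjusted p = 0.0181). The latter was lost without 50 lux replicate 1 (0.0588) or 5000 lux replicate 2 (0.202). In the wild type the changes were -0.20 (SE 0.20, adjusted p = 0.617) and -0.37 (SE 0.20, adjusted p = 0.3). Whether the genotypes differed in this response is taken up with the interaction below.

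Other settings ended some of these calls as well. With only the groups compared in the fit, adjusted p in the wild type at 2500 lux was 0.058 for Arr3 and 0.0801 for Gnat2. For the knockout it was 0.076 for Pde6h at 2500 lux, and 0.13 for Opn1sw, 0.185 for Cngb3 and 0.0681 for Gnb3 at 5000 lux. With no filter on low values it was 0.065 and 0.0774 for Gnat2 at the wild-type doses, 0.0672 for Arr3 in the wild type at 5000 lux, 0.0863 for Pde6h, and 0.13 for Opn1sw and 0.0543 for Cngb3 in the knockout at 5000 lux. Array weights left these last 2 genes uncalled too (0.127 and 0.0592). Other settings gained calls. For Opn1sw in the wild type at 2500 lux adjusted p was 0.0438 with the filter at log2 6, 0.0449 with a pseudocount of 16, 0.047 with arrays centred on their median, 0.0414 with an intensity trend, 0.035 with array weights and 0.0154 for the mean of its probe sets. At 5000 lux it was 0.0137 with array weights, 0.046 with only the groups compared and 0.0295 for the mean of its probe sets. In the knockout at 5000 lux Arr3 gained a call with the stricter filter, the pseudocount, median centring and the trend (0.0427 to 0.0465) and without 50 lux replicate 1 (0.0432), and Gnat2 with the trend (0.0479). Cngb3 in the wild type at 5000 lux gained one with array weights (0.0403). The falls of Opn1sw, Arr3, Gnat2 and Cngb3 in the knockout at 2500 lux, and the rise of Gnb3 there and in the wild type, were called under every setting run.

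Each tested cone subunit was then set beside the rod gene of the same role. The 9 rod counterparts tested are described here. Of these 9, in the wild type 5 fell at 2500 lux and 6 at 5000 lux. In the knockout all 9 fell at 2500 lux and 4 at 5000 lux. None rose. Their median changes were -0.53 and -0.52 in the wild type and -0.75 and -0.39 in the knockout.

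Rod arrestin Sag moved by -0.23 and -0.16 in the wild type and by -0.36 (called) and -0.13 in the knockout, where Arr3 moved by -0.94 to -2.10. The rod transducin alpha subunit Gnat1 moved by -0.23, -0.24, -0.30 (called) and -0.09 in the same order, where Gnat2 moved by -0.61 to -1.18. For the beta subunits the signs were opposite, with Gnb1 at -0.53, -0.43, -0.51 (all 3 called) and -0.20 and Gnb3 higher throughout. The order was turned for the phosphodiesterase. Pde6a, a catalytic subunit of rods, fell by 1.03, 1.43, 0.93 and 0.77 on the log2 scale, all called, while no change of Pde6c was called. The probe sets compared differ in brightness. Over all arrays Sag read 14.18 to 14.70 and Gnat1 13.94 to 14.37, against 8.42 to 11.15 for Arr3 and 9.76 to 11.24 for Gnat2. Pde6a read 10.39 to 12.16. Whether changes are compressed at high intensity was not tested, so unequal changes of cone and rod genes may be unequal in the readout alone.

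Within arrays, these ratios of cone to rod gene changed between 50 lux and bright light, both doses pooled. Arr3 over Sag moved by -1.25 and Gnat2 over Gnat1 by -0.62. Gnb3 over Gnb1 moved by 1.61 and Pde6c over Pde6a by 1.05. In each of these 4 ratios the 11 bright-light arrays did not overlap the 5 at 50 lux (exact permutation test, adjusted p = 0.000957 each). For Gnb3 over Gnb1 this outcome was fixed beforehand, since Gnb3 lay higher and Gnb1 lower on every bright-light array. Within the knockout the same held for Pde6c over Pde6a, with Pde6c higher and Pde6a lower on every bright-light array. Pde6c over the other rod catalytic subunit, Pde6b, moved by 0.57 (adjusted p = 0.00164, exact permutation test), with overlap. This was made of 0.20 in the wild type, where the arrays at 50 and 2500 lux overlapped, and 0.94 in the knockout. The knockout part was likewise fixed beforehand, since there Pde6c lay higher and Pde6b lower on every bright-light array. Pde6h over Pde6g moved by 0.34 (adjusted p = 0.00933, exact permutation test) and Cngb3 over Cngb1 by 0.44 (adjusted p = 0.0153, exact permutation test), with overlap. The last was lost without wild-type 50 lux replicate 1 (0.35, adjusted p = 0.0536, exact permutation test) and without knockout 50 lux replicate 3 (0.38, adjusted p = 0.0544, exact permutation test). For the channel the pooled value covers unlike groups: in the knockout the ratio ran from -4.89 to -4.52 at 50 lux, from -4.40 to -3.99 at 2500 lux and from -4.94 to -4.55 at 5000 lux. The pooled ratio of cone to rod form thus fell for arrestin and the transducin alpha subunit. It rose for the transducin beta and phosphodiesterase subunits tested, for Pde6c over Pde6b mainly in the knockout.

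**Figure D3:**
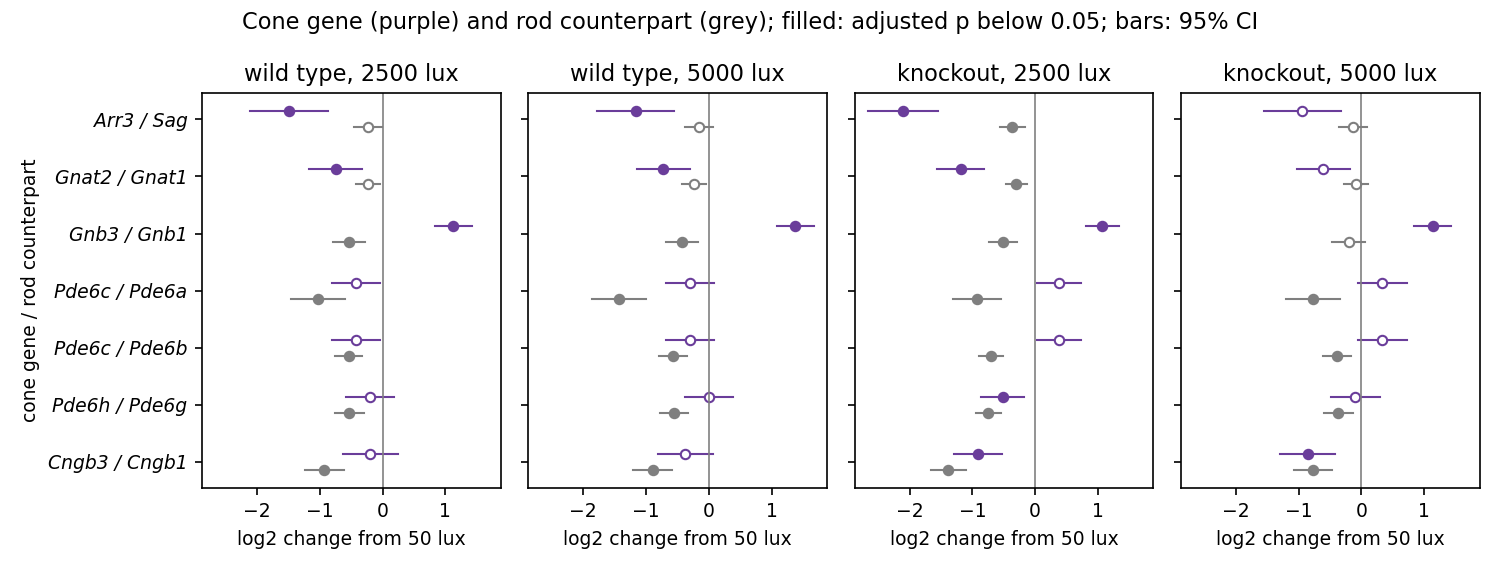
Log2 change from 50 lux (horizontal axes) of each cone gene (purple) and the rod gene of the same role (grey) in the 4 light comparisons, with 95% confidence intervals; filled symbols passed the test. Arr3 and Gnat2 lie left of Sag and Gnat1 in every panel, and Gnb3 lies right of Gnb1.

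**Figure D4:**
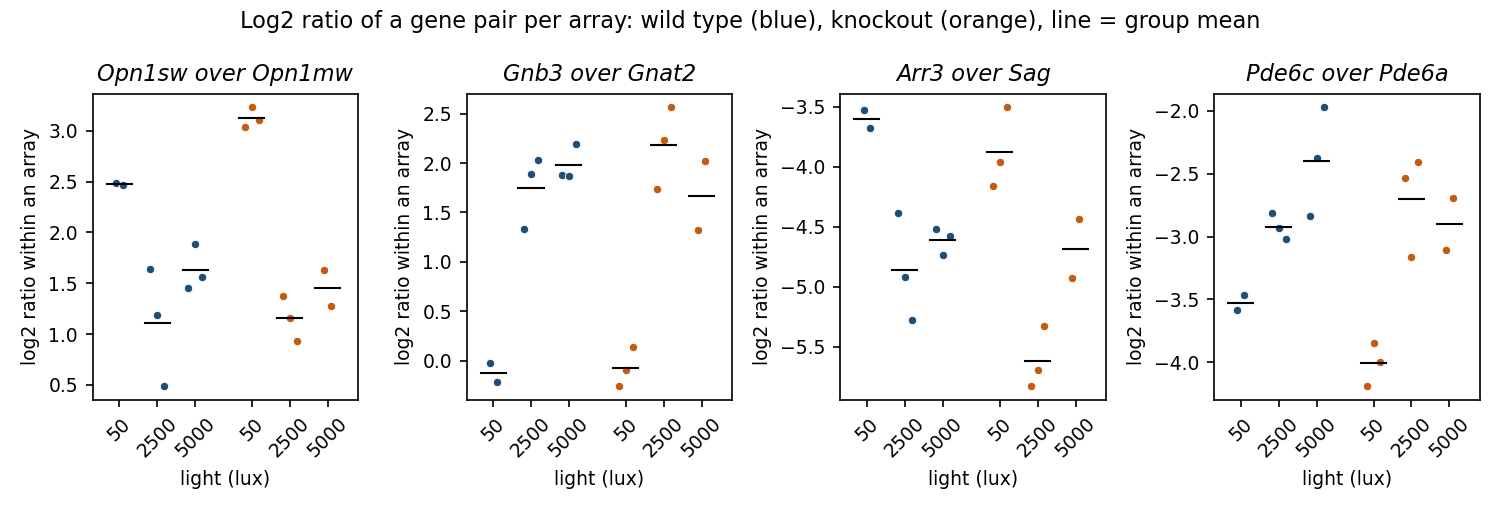
Log2 ratio of a pair of genes within each array (vertical axes) by light dose in lux; blue points are wild-type arrays, orange points knockout arrays, and lines are group means. In all 4 pairs the bright-light arrays are separate from those at 50 lux, with Opn1sw over Opn1mw at or below 1.88 in bright light and at or above 2.47 at 50 lux.

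A list of 11 genes of the kinase, recovery and calcium feedback steps, most of them used by both rods and cones, was read beside them. Of the 10 tested, which include the opsin kinase, the proteins that switch transducin off and the guanylate cyclase pathway, 7 and 6 fell in the wild type at 2500 and 5000 lux, and 7 and 1 in the knockout, with none rising. Slc24a1, which fell in all 4 (log2 -0.62, -0.69, -0.83 and -0.54), is the sodium-calcium-potassium exchanger of rods. Which cells its fall came from was not tested. Guca1a, a calcium sensor of guanylate cyclase, fell by 0.78 and 0.55 in the wild type and by 0.98 in the knockout at 2500 lux. The list's medians were -0.60, -0.53, -0.52 and -0.17.

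Among 8 other cone genes 6 were tested. Ccdc136 was called in all 4 comparisons (log2 -0.48, -0.43, -0.85 and -0.74). Kcne2, a potassium channel subunit, fell in the knockout (log2 -1.35, adjusted p = 0.000715, and -0.90, adjusted p = 0.0331) and was not called in the wild type (-0.48 and -0.56). The nuclear receptor genes Rxrg and Rorb, which act in cone opsin patterning and photoreceptor differentiation, were called nowhere. Thrb, the thyroid hormone receptor of cones, did not pass the filter.

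Of 6 tested photoreceptor transcription factors, 4 fell in the wild type at each dose and at 2500 lux in the knockout, namely Crx, Otx2, Nrl and Prdm1. At 2500 lux Crx, which drives rod and cone genes, fell by 0.51 in the wild type and 0.50 in the knockout, and Nrl, which sets rod identity, by 0.68 and 0.95. In the knockout Neurod1 rose at both doses (log2 0.42 and 0.40), and at 5000 lux Nrl alone fell. The list medians were -0.54, -0.43, -0.47 and -0.19.

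Markers of other cells moved too. Of 10 Müller glia markers 4 rose and 3 fell in the wild type at 2500 lux, with 4 and 2 at 5000 lux, and 3 and 3 and then 2 and 3 in the knockout. Of 8 tested pigment epithelium markers 1 and 6 fell in the wild type at 2500 and 5000 lux, and 1 and 0 in the knockout. Their summed intensity ran from 9824 to 13760 in the wild type at 50 lux and from 3236 to 4893 at 5000 lux. Of 5 tested microglia markers 3 and 1 rose in the wild type and 1 and 1 in the knockout, where 1 also fell at 2500 lux. Of 7 amacrine markers 4 fell, and of 7 ganglion cell markers also 4, in the knockout at 5000 lux. In the other 3 comparisons no amacrine marker was called, and 1 ganglion cell marker fell in the wild type at 5000 lux and 1 in the knockout at 2500 lux. Of 3 horizontal cell markers 1 fell at each dose in the knockout, none of 5 lens markers was called, and the 1 tested blood marker, Hba-a2, rose in all 4 from a level below log2 4. Their part in the cone results was not tested.

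The step from 2500 to 5000 lux gave no call among the members in either genotype. For the wild type no member passed, none had an unadjusted p under 0.05 in limma, and 0% of all genes were called. The step of Gnat2, 0.02, was -0.04 without the lens-rich array. In the knockout no member passed either, where 0.119% of all genes were called. An unadjusted p under 0.05 in limma was found for 5 members, all higher at the higher dose. The share of all genes under that unadjusted limit was not counted in either genotype, so these counts are descriptions only. Arr3 was higher by 1.16 (95% interval 0.54 to 1.78, adjusted p = 0.154), with no overlap of the groups. Opn1sw was higher by 0.92 (0.06 to 1.77), Opn1mw by 0.62 (0.16 to 1.08), Gnat2 by 0.58 (0.16 to 1.00) and Pde6h by 0.42 (0.03 to 0.80), with adjusted p from 0.269 to 0.368. Single arrays moved these values. Without 5000 lux replicate 1 they were 0.47, 0.35, 0.28 and 0.26 for Opn1sw, Opn1mw, Gnat2 and Pde6h, and without replicate 2 they were 1.36, 0.89, 0.87 and 0.58. The median of the 8 genes was 0.50, beside -0.02 over all genes. There were 2 knockout arrays at 5000 lux, and replicate 1 was the higher of them for Opn1sw, Opn1mw, Gnat2, Pde6h and Cngb3.

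Between genotypes no cone gene was called at any dose. At 50 lux 0.403% of all genes were called, at 2500 lux 0.137% and at 5000 lux 0.00916%. The counts of members with an unadjusted p under 0.05 in limma were 2, 2 and 0. The share of all genes under that unadjusted limit was not counted. At 50 lux Pde6c was lower in the knockout by 0.73 (95% interval 0.34 to 1.11 lower, unadjusted p = 0.00124, adjusted p = 0.119), and all 3 knockout arrays lay below both wild-type arrays. Without knockout 50 lux replicate 2 it was called (log2 -0.84, adjusted p = 0.0477). Replicate 1 was the lowest, at 7.39, and without it the difference was -0.53 (adjusted p = 0.29). Cngb3 was higher in the knockout at 50 lux by 0.49 (0.06 to 0.93, adjusted p = 0.293).

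At 2500 lux Arr3 was lower in the knockout by 0.90 (95% interval 0.35 to 1.46 lower, adjusted p = 0.514) and Opn1mw by 0.51 (0.10 to 0.92 lower, adjusted p = 0.732), with no overlap of the groups in either. At 5000 lux the smallest unadjusted p among the members was 0.0952, for Opn1mw. For Gnb3 the 3 genotype differences lay between -0.08 and 0.16, and the intervals reached from -0.38 to 0.45. The summed lens markers were higher in the knockout than in the wild type at 50 lux, 1436 to 5686 against 29.3 to 127, and their part in these differences was not tested.

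**Figure D5:**
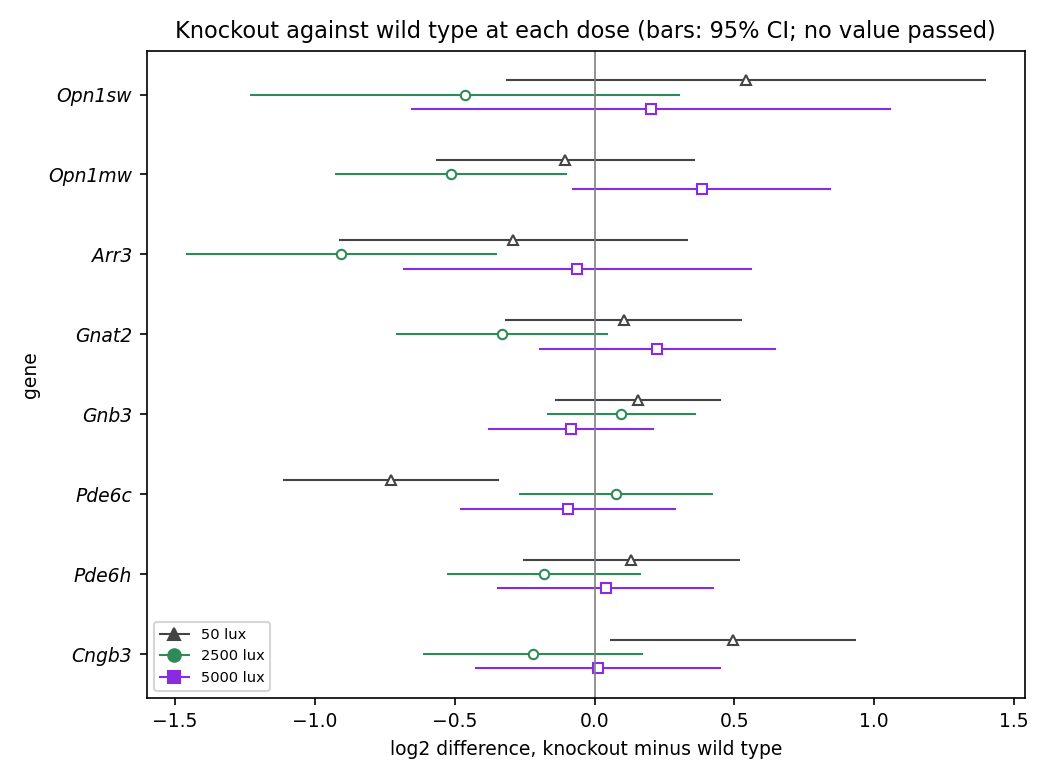
Log2 difference, knockout minus wild type (horizontal axis), of the 8 tested cone genes at 50 lux (triangles), 2500 lux (circles) and 5000 lux (squares), with 95% confidence intervals. None passed the test; Pde6c at 50 lux (-0.73) and Arr3 at 2500 lux (-0.90) lie farthest below 0.

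Whether a light response differed between genotypes was tested as an interaction. At 2500 lux 0.0641% and at 5000 lux 0.0366% of all genes were called, and no cone gene was. Of the cone genes 2 and 1 had an unadjusted p under 0.05 in limma, a limit at which all genes were not counted. For Opn1sw the knockout response at 2500 lux was larger in size by 1.01, with an interval from 2.15 larger to 0.14 smaller (adjusted p = 0.588). Without wild-type 2500 lux replicate 1 this interaction was -0.56, and leaving out each array gave a range down to -1.39. For Arr3 the interaction was -0.61 (-1.45 to 0.22), which ranged from -0.83 to -0.33, the latter again without wild-type 2500 lux replicate 1, and for Cngb3 -0.71 (-1.30 to -0.13, adjusted p = 0.484). Pde6c had the smallest p, with interactions of 0.80 at 2500 lux (0.29 to 1.32, unadjusted p = 0.00498, adjusted p = 0.39) and 0.63 at 5000 lux (0.09 to 1.18, adjusted p = 0.587). The larger number of calls in the knockout at 2500 lux is therefore not shown to be a difference between genotypes. The wild-type comparisons rest on 2 arrays at 50 lux and the knockout ones on 3.

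Genes whose levels ran most like 3 of the members were named by Pearson's r over the 16 arrays, which share their light groups, and again over the 11 bright-light arrays. For Opn1sw these were Bbs9, a subunit of the ciliary BBSome (r = 0.984 over 16 arrays and 0.974 over 11), Slc16a1, a lactate and pyruvate transporter (0.976 and 0.962), and Gnat2 (0.969 and 0.917). For Arr3 they were Pla2r1 (0.95 and 0.852), Dlg1 (0.943 and 0.842) and Cers4 (0.939 and 0.818). For Gnb3 they were the transcription factor gene Rfx2 (0.992 and 0.917), Agtpbp1 (0.984 and 0.598) and the long noncoding RNA Neat1 (0.981 and 0.824). These values describe the arrays at hand and carry no test.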

How the data were processed

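The authors deposited a linear intensity for each probe set on each array, made with GCRMA per the submitters' processing notes, which give no version. A common lowest value filled 30.9% to 31.5% of each array. Log2 was taken with no pseudocount. Probe sets above log2 4 on at least 2 arrays (23320 of 45037) were tested. Symbols came from the platform annotation (34945 probe sets with 1 symbol, 932 with several, 9160 with none), and the brightest probe set with 1 symbol stood for a gene. A model with 6 group means was fitted over the 16 arrays with limma 3.58.1 (R 4.3.3; lmFit and eBayes, no trend, 10 residual degrees of freedom), with 11 contrasts and Benjamini-Hochberg adjustment over all probe sets tested. The script was tested on simulated data.

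Ratios of genes were compared by an exact two-sided permutation test of arrays within each genotype. All 10 cone genes, their rod counterparts and Nxnl1 are named. From the other lists at most the 4 genes with the smallest p are named; genes named as not called or not tested (Rxrg, Rorb, Thrb) were chosen after their values were seen. The genes and lists were chosen with earlier results of these data known. Arrays were treated as unpaired. The number of arrays limits the precision.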

Additional observations from a re-analysis of the deposited data

Results flagged for a closer look

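Pde6c, the catalytic subunit of the cone phosphodiesterase, lay on opposite sides of its 50 lux level in the genotypes, although none of these changes passed the test. At 2500 lux 3 of 3 wild-type arrays lay below the wild-type mean at 50 lux and 3 of 3 knockout arrays lay above the knockout mean, a difference of responses of 0.80 on the log2 scale (interaction in limma, unadjusted p = 0.00498, adjusted p = 0.39). At 5000 lux the counts were 3 of 3 below and 2 of 2 above, with a difference of 0.63 (adjusted p = 0.587). Neither interaction passed the threshold. Both share the 50 lux arrays, and without knockout 50 lux replicate 1, the lowest, the differences were 0.60 and 0.43. Mean levels in wild type and knockout were 8.52 and 7.79 at 50 lux, 8.10 and 8.17 at 2500 lux, and 8.22 and 8.13 at 5000 lux. The genotypes thus lay farther apart at 50 lux than in bright light. The share of all genes that lie on opposite sides in this way was not counted.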

How the results depend on the processing

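Of 15 called changes of cone genes under 231 alternatives, 195 stayed called in the same direction, 36 were no longer called and 0 changed sign. Called under every alternative run were Gnb3 in the wild type at both doses and in the knockout at 2500 lux, and Opn1sw, Arr3, Gnat2 and Cngb3 in the knockout at 2500 lux. Gnb3 in the knockout at 5000 lux was lost with only the groups compared in the fit (adjusted p = 0.0681 in limma). Of 1201 alternatives for the 73 uncalled changes, 21 were newly called and 38 changed sign. The cause of these changes was not tested.

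Counts of called cone genes (3, 3, 6 and 3 in the wild type at 2500 and 5000 lux and the knockout at 2500 and 5000 lux) moved as follows. With only the groups compared, 1 was called in the wild type at 2500 lux and 0 in the knockout at 5000 lux, where fewer arrays entered the fit. With no filter on low values, 1 was called at 5000 lux in each genotype. With array weights 5 were called in the wild type and 1 in the knockout at 5000 lux, and with an intensity trend 5 in the knockout at 5000 lux. Leaving out each replicate gave 1 to 4, 1 to 2, 5 to 6 and 1 to 4, and 0 to 1 for the genotype difference at 50 lux.

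Deviations of same-numbered arrays from their group means correlated from -0.238 to 0.693 (36 pairs, median 0.175, 21 over 0.1), against a median of -0.11 for other numbers (70 pairs, 13 over 0.1). The labels do not say that a number is shared between groups, so the main fit did not pair the arrays. These correlations do not settle whether same-numbered arrays were handled together, and that was not tested. The replicate number as a block gave 4, 3, 6 and 4 calls, gaining Opn1sw in the wild type at 2500 lux (-1.10, adjusted p = 0.0309 in limma) and Gnat2 in the knockout at 5000 lux (-0.67, adjusted p = 0.018 in limma), and lost none. In all, 13 of 16 arrays correlated best with an array of their own number, as a hint from the data and not the design. With the replicate block the signs of 6 small uncalled values turned: Pde6h in the wild type at 5000 lux (0.046), the knockout dose step of Cngb3 (-0.051), the genotype difference at 5000 lux of Pde6h (-0.0090) and Cngb3 (-0.093), and the interactions of Gnb3 at 2500 lux (0.014) and Gnat2 at 5000 lux (-0.0013).

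Signs also turned for Pde6h in the wild type at 5000 lux with quantile normalization (0.0036), and with array weights for the wild-type dose step of Gnat2 (-0.026) and the 2500 lux interaction of Gnb3 (0.014). Leaving out each replicate, light responses that crossed 0 were Opn1mw in the wild type at 2500 lux (-0.11 to 0.17) and Pde6h at 5000 lux in the wild type (-0.094 to 0.089) and knockout (-0.25 to 0.061). Dose steps were those of Opn1sw (-0.13 to 0.70) and Gnat2 (-0.062 to 0.18) in the wild type and Gnb3 (-0.0041 to 0.13), Pde6c (-0.096 to 0.011) and Cngb3 (-0.17 to 0.27) in the knockout. Genotype differences at 5000 lux were those of Opn1sw (-0.24 to 0.65), Arr3 (-0.27 to 0.15), Gnat2 (-0.070 to 0.52), Pde6c (-0.21 to 0.0010), Pde6h (-0.12 to 0.20) and Cngb3 (-0.21 to 0.23). Interactions were those of Gnb3 at 2500 lux (-0.15 to 0.046) and of Opn1sw (-0.79 to 0.11), Gnat2 (-0.17 to 0.41) and Pde6h (-0.25 to 0.064) at 5000 lux. Among the within-array ratios only that of Cngb3 to Cngb1 was lost: with quantile normalization it was 0.35 (adjusted p = 0.0517, exact permutation test).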
